A study of Mus musculus with 6 samples.

Results

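Lysosomal genes were followed in messenger RNA from mouse alveolar macrophages, the phagocytes of the lung's air spaces. The group holds 40 genes of the 34745 in the expression table, picked by gene symbol from a written list: 19 acid hydrolases, 11 subunits or partners of the vacuolar proton pump (V-ATPase), and 10 helper, membrane, carrier and regulatory genes. All 40 were found under 1 Ensembl ID each, and all 40 passed the filter on low counts. The cells came from bronchoalveolar lavage fluid, the washings of the airways. There were 3 libraries from Phlpp1-deficient mice (called KO here) and 3 from wild-type (WT) mice. Every mouse, WT included, had received bleomycin at 5 mg per kg, which injures the lung, and the libraries are labelled day 7. Instilled agents went into the trachea, per the labels. The labels give no age, sex, strain or description of the Phlpp1 allele, and they do not say whether a library is 1 animal or a pool, so the p-values rest on the spread of these libraries alone, and that spread could be technical. Mice given saline were not analysed here.

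Lysosomes break down what a macrophage takes up, such as surfactant, dying cells and debris. Their enzymes need an acidic interior. The V-ATPase makes it by pumping protons: its V1 sector splits ATP in the cytosol and turns a rotor that drives protons through the V0 sector in the membrane. The transcription factor Tfeb switches on many hydrolase and pump genes by binding a sequence called the CLEAR motif, and it is held in the cytosol when the kinase mTORC1 phosphorylates it. Phlpp1 is a phosphatase known to remove activating phosphate from Akt, a kinase upstream of mTORC1. The comparison therefore gives the levels of these genes in mice labelled Phlpp1-deficient and in WT mice, both with an injured lung.

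Total counts ranged from 13340861 to 15843764 per library, and the lowest count of any lysosomal gene in any library was 319, so counting error was small beside the differences between libraries. Phlpp1 itself had 30.3, 25.3 and 28.5 CPM in WT libraries 1 to 3 and 23.2, 21.6 and 17.7 CPM in KO libraries 1 to 3. CPM are counts scaled to a library of fixed size and adjusted between libraries by the TMM method. The KO libraries were all lower, but the gene did not pass the test (log2 difference -0.43, SE 0.16, edgeR adjusted p = 0.62), so it checks the labels only weakly. Resident alveolar macrophage markers were present in every library, with none of the 18 at 0 and summed levels of 8455 to 9844 CPM in WT and 7433 to 13945 CPM in KO. Other cells were present too. Neutrophil markers summed to 1309, 12802 and 2686 CPM in WT libraries 1 to 3 and to 6439, 9283 and 1598 CPM in KO libraries 1 to 3, over 18 genes of which Ly6g, Camp and Ngp were at 0 in at least 1 library.

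Most lysosomal genes differed more between libraries of the same genotype than between the genotypes. No member passed between KO and WT, while 14 of 14037 tested genes did (0.0997%, with 0.0499% higher and 0.0499% lower, edgeR's quasi-likelihood test with Benjamini-Hochberg adjusted p under 0.05). DESeq2, limma-voom and limma on FPKM also called 0 members. Over the whole table DESeq2 called 177 genes, limma-voom 23, and limma on FPKM 23 or 27, depending on the pseudocount. The smallest adjusted p was 0.638, for Glb1. At an unadjusted p under 0.05 there were 2 members, Glb1 and Arsb, both lower in KO. At that level stood 6.96% of all tested genes, 3.4% higher and 3.56% lower. The fitted difference was below 0 in 34 of the 40 and above 0 in 6, beside 7624 and 6413 of all tested genes. The median log2 difference was -0.21 over the 40 members and -0.02 over all tested genes. This lean rests largely on KO library 1: without it, 17 of the 40 members were above 0. Under the other scalings of the libraries, 7 (RLE factors) and 8 (library totals) were above 0.

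**Figure D1:**
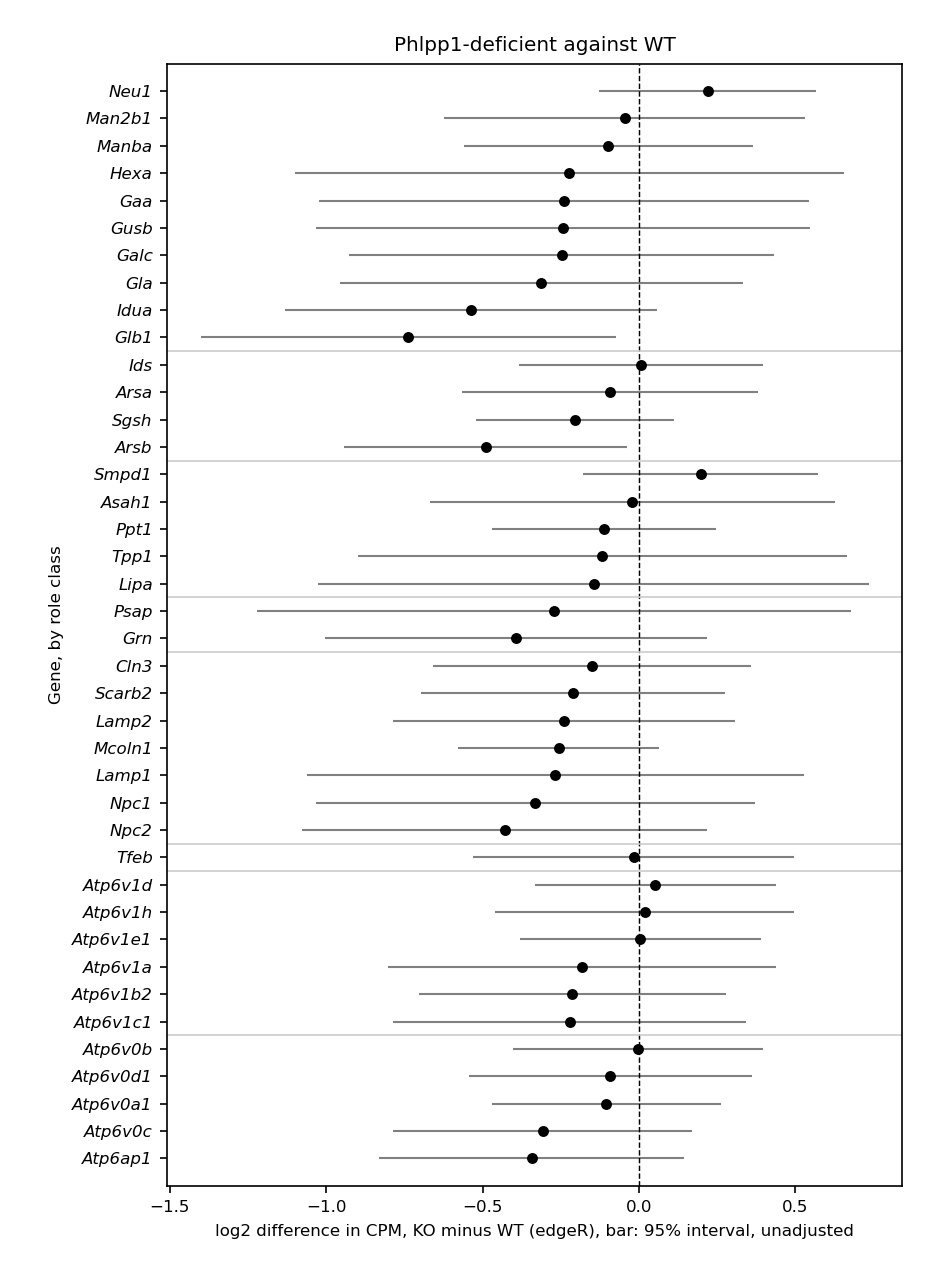
Each point is a gene's fitted log2 difference in CPM, KO minus WT, over 3 libraries each, and each bar its unadjusted 95% interval, with genes grouped by role (horizontal lines part the classes). The points run from -0.74 for Glb1 to 0.22 for Neu1, and only the bars of Glb1 and Arsb stay below 0.

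Levels per gene length spanned from 3.31 to 1935 FPKM (fragments per kilobase of gene and per fixed number of fragments, as deposited, averaged over the 6 libraries). Psap was highest by far, at rank 15 among all genes of the table and 0.652% of the summed FPKM. Lamp1 followed at 530 FPKM (rank 50), then Hexa at 254, Npc2 at 219, Lipa at 197, Man2b1 at 157 and Grn at 123 FPKM. The V-ATPase members were closer to each other, most of them between 18.7 FPKM (Atp6v0a1) and 101 FPKM (Atp6v1d), with Atp6v1h alone below at 5.79 FPKM. At the low end lay Sgsh, Tfeb at 5.12 FPKM, Idua at 5.22, Arsa at 5.62 and Cln3 at 6.99 FPKM.

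**Figure D2:**
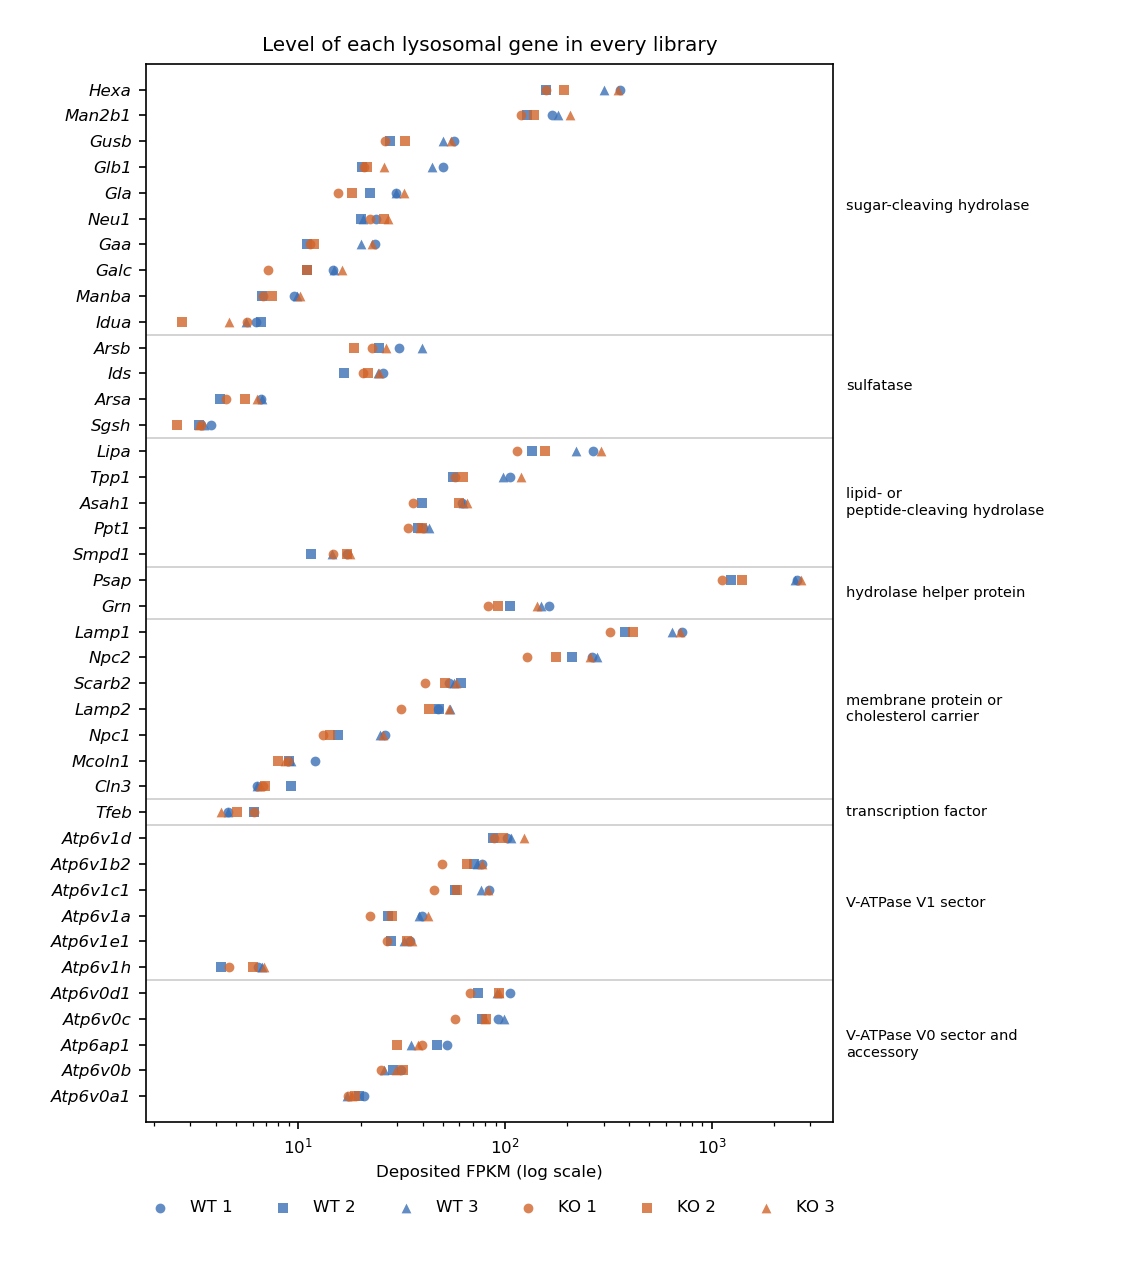
Deposited FPKM (horizontal log axis) of every gene in each of the 6 libraries, with WT in blue and KO in orange and the symbol giving the replicate number. Psap is the rightmost gene in every library, and for genes such as Hexa, Lipa and Lamp1 the points fall apart into libraries rather than into genotypes.

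Among the enzymes that cut sugars from glycans and glycolipids, 9 of 10 lay below 0 in KO and none passed. Hexa, the alpha chain of beta-hexosaminidase, had the highest FPKM of the class. It had 644, 323 and 552 CPM in WT libraries 1 to 3 and 286, 370 and 646 CPM in KO libraries 1 to 3. KO library 3 matched the highest WT library and KO library 1 was the lowest, so the groups overlapped fully. The means were 506 ± 165 and 434 ± 188 CPM (SD, n = 3 each), a log2 difference of -0.22 (95% interval -1.10 to 0.66, edgeR adjusted p = 1).

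Glb1, the acid beta-galactosidase, had the largest difference of all members. Its values were 114, 53.4 and 105 CPM in WT and 48.6, 53.2 and 61.2 CPM in KO libraries 1 to 3. WT libraries 1 and 3 stood above all others, while WT library 2 lay within the KO range. The log2 difference was -0.74 (SE 0.28, 95% interval -1.40 to -0.08, edgeR adjusted p = 0.638), and it moved with the library left out: it was -0.99 without WT library 2 (edgeR adjusted p = 0.148), -0.54 without WT library 1 (adjusted p = 0.805) and -0.60 without WT library 3 (adjusted p = 1). In KO library 3, Hexa, Gaa, Gusb and Gla were about as high as in WT library 1 or higher, while Glb1 and, in the same class, Idua were lower there. Exons of Glb1 overlap Tmppe on the same strand by up to 165 bases, so reads of the overlap cannot be told apart. Tmppe itself had 48.7, 35.4 and 49.3 CPM in WT and 34.0, 31.3 and 56.7 CPM in KO, with KO library 3 the highest.

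Of the other sugar-cutting enzymes, 6 had their 3 highest values in the same libraries as Hexa, and Neu1 and Idua did not. Gaa, which degrades glycogen, ranged from 67.8 to 136 CPM over the 6 libraries, and Gusb, beta-glucuronidase, from 204 to 434 CPM. Gla, alpha-galactosidase A, ran from 50.2 to 106 CPM, and Galc, which splits galactosylceramide, from 26.4 to 61.3 CPM. In these 4 genes KO library 1 was the lowest. The mannosidases varied less, Man2b1 from 505 to 877 CPM and Manba from 62.5 to 95.4 CPM. Neu1, the lysosomal sialidase, was the only one of the class above 0: it had 132 ± 7.34 CPM in WT and 154 ± 18.04 CPM in KO (SD, n = 3 each). The log2 difference was 0.22 (interval -0.13 to 0.57, edgeR adjusted p = 0.922). Idua, which cuts iduronic acid from dermatan and heparan sulfate, had its own order, highest in WT library 2 at 59.9 CPM and lowest in KO library 2 at 23.4 CPM (log2 difference -0.54, SE 0.25, edgeR adjusted p = 0.79).

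Of the 4 sulfatases, Arsb had the highest FPKM, the largest difference and the smallest p. This enzyme removes sulfate from dermatan and chondroitin sulfate, glycosaminoglycans of the extracellular matrix. It had 117, 107 and 155 CPM in WT and 88.7, 76.9 and 104 CPM in KO libraries 1 to 3. Every KO library lay below every WT library, with a gap of only a few CPM between KO library 3 and WT library 2. The log2 difference was -0.49 (SE 0.19, 95% interval -0.94 to -0.04, edgeR adjusted p = 0.66). It stayed between -0.59 and -0.28 under the 16 other settings tried, with adjusted p from 0.424 to 1. Sgsh, which acts on heparan sulfate, also had separate groups (46.0 ± 1.38 and 39.9 ± 4.40 CPM, SD, n = 3 each, log2 difference -0.20, edgeR adjusted p = 0.916). Ids, iduronate sulfatase, was at 114 ± 17.8 and 115 ± 11.3 CPM, and Arsa, which acts on sulfatide, at 39.1 ± 7.28 and 36.6 ± 6.47 CPM in WT and KO (SD, n = 3 each).

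Groups that did not overlap were found in 4 of the 40 members, all lower in KO: Arsb, Sgsh, Mcoln1 and Atp6v0c. Of all tested genes, 11.1% had separate groups: 6.53% with every KO library below every WT library and 4.57% with every KO library above.

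The lipid- and peptide-cutting enzymes gave 4 of 5 members below 0. Lipa, the acid lipase that frees cholesterol and fatty acids from lipoprotein lipid, had 782, 455 and 663 CPM in WT and 343, 497 and 878 CPM in KO libraries 1 to 3. Both its highest and its lowest value were KO libraries, so the genotypes overlapped over the whole WT range (log2 difference -0.15, SE 0.37, interval -1.03 to 0.73, edgeR adjusted p = 1). Tpp1, a tripeptide-releasing protease, took the same order, from 196 CPM in KO library 1 to 410 CPM in KO library 3. Asah1, acid ceramidase, was low in KO library 1 at 195 CPM and WT library 2 at 243 CPM and lay between 329 and 361 CPM in the other libraries.

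Smpd1, acid sphingomyelinase, and Ppt1, which removes palmitate from proteins, hardly followed this order. Smpd1 had 39.6, 30.2 and 34.5 CPM in WT and 34.6, 42.9 and 42.1 CPM in KO. KO libraries 2 and 3 were the highest and WT library 2 the lowest (log2 difference 0.20, SE 0.16, interval -0.18 to 0.57, edgeR adjusted p = 0.979). Ppt1 stayed between 190 and 241 CPM, the narrowest relative range of all members, 1.27-fold from lowest to highest. Exons of Ppt1 overlap the abundant gene Cap1 on the opposite strand, at 873 to 1133 CPM, and whether the counting used strand is not stated, so its count is uncertain.

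Psap and Grn, which help the hydrolases, were both lower in mean and did not pass. Psap is cut into the saposins, which present lipids to the enzymes. Its levels were 9880, 5387 and 9873 CPM in WT and 4383, 5800 and 10642 CPM in KO libraries 1 to 3. WT libraries 1 and 3 and KO library 3 formed a high set and the other 3 a low one, with a gap from 5800 to 9873 CPM and no sorting by genotype (log2 difference -0.27, SE 0.40, interval -1.22 to 0.68, edgeR adjusted p = 1). Grn encodes progranulin, a binding partner of prosaposin. It had 1124, 841 and 1056 CPM in WT and 582, 696 and 1021 CPM in KO. Only KO library 3 reached the WT range (log2 difference -0.39, SE 0.26, interval -1.003 to 0.22, edgeR adjusted p = 0.916).

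All 7 membrane proteins and cholesterol carriers lay below 0, from -0.43 to -0.15, and none passed. Lamp1, the most abundant glycoprotein of the lysosomal membrane here, had 1548, 937 and 1414 CPM in WT and 711, 972 and 1554 CPM in KO libraries 1 to 3, the order of Psap (log2 difference -0.27, SE 0.34, edgeR adjusted p = 1). Npc2, which hands cholesterol to the membrane protein Npc1, had 823, 747 and 886 CPM in WT and 404, 595 and 825 CPM in KO. KO library 3 fell inside the WT range and KO libraries 1 and 2 below it (log2 difference -0.43, SE 0.28, interval -1.08 to 0.22, edgeR adjusted p = 0.916). Npc1 had 347 ± 69.7 and 276 ± 105 CPM in WT and KO (SD, n = 3 each), -0.33 in log2 (edgeR adjusted p = 0.99).

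Mcoln1, a calcium channel of the lysosome, had 60.6, 51.9 and 47.8 CPM in WT and 46.0, 43.2 and 44.9 CPM in KO. The KO values lay close together and just below the lowest WT value (log2 difference -0.26, SE 0.14, interval -0.58 to 0.06, edgeR adjusted p = 0.84). A stretch of 400 bases of Mcoln1 has 95% identity with the noncoding gene A230057D06Rik, which could take up some of its reads. Lamp2 had 500 ± 43.6 and 423 ± 111 CPM and Scarb2, which carries glucocerebrosidase to the lysosome, 389 ± 56.1 and 336 ± 61.4 CPM in WT and KO (SD, n = 3 each). Cln3, a membrane protein lost in juvenile Batten disease, was highest in WT library 2 at 115 CPM and between 68.8 and 81.1 CPM elsewhere. Apobr, which overlaps Cln3 exons on the opposite strand by up to 442 bases, was also highest in WT library 2, at 436 CPM against 181 to 300 CPM elsewhere, and the part of its reads in the Cln3 count was not tested.

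Tfeb differed little between the genotypes, and its order over the libraries was nearly the reverse of Psap's. It had 40.3, 61.5 and 41.4 CPM in WT and 54.9, 48.2 and 38.3 CPM in KO libraries 1 to 3. The 3 libraries with the lowest Tfeb were those with the highest Psap. The log2 difference was -0.02 (SE 0.22, interval -0.53 to 0.50, edgeR adjusted p = 1), and its sign changed with the setting, from -0.14 to 0.22.

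**Figure D3:**
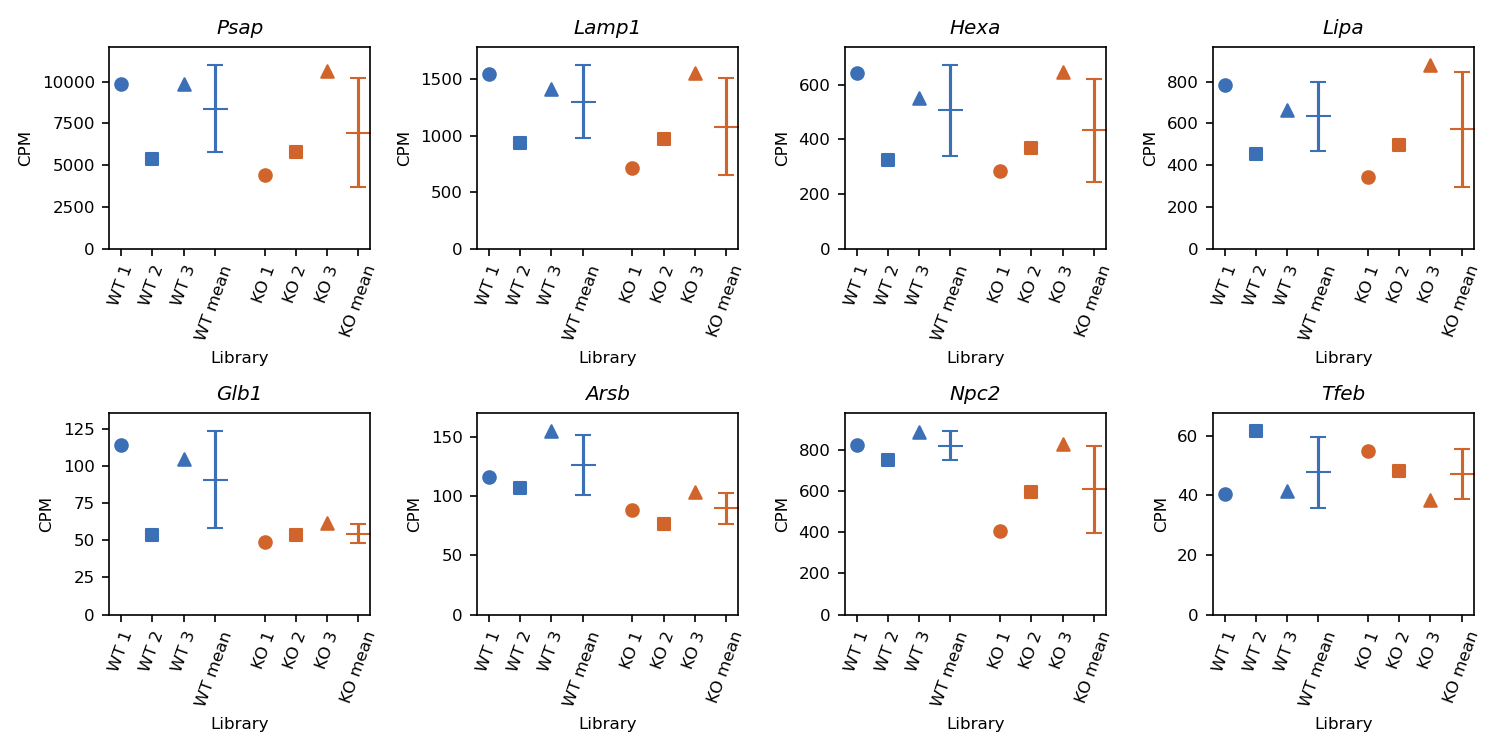
CPM of 8 genes in each library (points, WT blue and KO orange) with the mean and SD of each genotype (bars, n = 3). Psap, Lamp1, Hexa and Lipa share an order in which KO library 3 is among the highest and KO library 1 the lowest, Glb1 lacks the high value in KO library 3, and Tfeb runs the other way.

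The 11 proton pump genes of the group had a smaller median span from lowest to highest library than the 19 hydrolases. Of the 6 V1 genes, 3 lay above 0 and 3 below. Atp6v1d, a rotor subunit with the highest FPKM of the 11 pump genes, had 137, 134 and 147 CPM in WT and 121, 142 and 170 CPM in KO libraries 1 to 3. The KO libraries spread around the WT ones on both sides (log2 difference 0.05, SE 0.16, interval -0.33 to 0.44, edgeR adjusted p = 1). Atp6v1c1, of the stalk, had 167, 130 and 157 CPM in WT and 92.3, 127 and 171 CPM in KO (log2 difference -0.22, SE 0.24, edgeR adjusted p = 1). Atp6v1b2, a subunit of the ATP-splitting head, had 481, 507 and 468 CPM in WT and 315, 442 and 498 CPM in KO (log2 difference -0.21, SE 0.21, edgeR adjusted p = 1). In both genes KO library 1 alone stood clearly below the rest.

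The remaining V1 genes gave the same picture. Atp6v1a, the catalytic subunit, ranged from 188 CPM in KO library 1 to 364 CPM in KO library 3. Atp6v1e1, of the peripheral stalk, had means of 183 ± 6.42 and 183 ± 28.1 CPM, and the regulatory Atp6v1h 66.6 ± 11.8 and 67.5 ± 13.4 CPM in WT and KO (SD, n = 3 each).

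All 5 members from the V0 sector and its accessory protein were at or below 0, the smallest difference being -0.0022 for Atp6v0b. Atp6v0d1, which couples the rotor to the membrane ring, had 214, 172 and 191 CPM in WT and 141, 206 and 195 CPM in KO libraries 1 to 3. Apart from KO library 1, the genotypes covered the same range (log2 difference -0.09, SE 0.19, edgeR adjusted p = 1). Atp6ap1, the accessory protein with the largest difference of the pump members, had 332, 337 and 227 CPM in WT and 254, 205 and 246 CPM in KO. WT libraries 1 and 2 were high and WT library 3 lay among the KO values (log2 difference -0.34, SE 0.21, interval -0.83 to 0.15, edgeR adjusted p = 0.895).

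Atp6v0c, the main proteolipid of the proton-carrying ring, had 409 ± 29.9 CPM in WT and 330 ± 68.2 CPM in KO (SD, n = 3 each). The log2 difference was -0.31 (SE 0.20, edgeR adjusted p = 0.916). KO library 2 at 380 CPM was just under WT library 2 at 385 CPM. The coding part of Atp6v0c has a processed pseudogene, Atp6v0c-ps2, with 99.8% identity over 465 bases, so its count is uncertain where reads could be split. The other proteolipid, Atp6v0b, was at 144 ± 15.6 and 144 ± 21.9 CPM, and Atp6v0a1, of the proton channel, at 188 ± 22.6 and 175 ± 12.6 CPM in WT and KO (SD, n = 3 each).

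Set against each other, hydrolases and pump differed more between libraries of a genotype than between the genotypes. The 19 hydrolases together had 1304, 741 and 1189 FPKM in WT libraries 1 to 3 and 701, 845 and 1346 FPKM in KO libraries 1 to 3. The 11 pump genes had 647, 522 and 602 FPKM in WT and 444, 545 and 628 FPKM in KO. The hydrolase sum thus spanned a wider relative range than the pump sum, and both were lowest in KO library 1. Much of the hydrolase sum came from Hexa, Lipa and Man2b1. Without them it was 506, 319 and 487 FPKM in WT and 309, 359 and 497 FPKM in KO libraries 1 to 3. That relative range was narrower than with all 19, though still wider than that of the pump sum. The mean log2 CPM of the hydrolases minus that of the pump genes was -0.51, -0.80 and -0.44 in WT and -0.65, -0.79 and -0.49 in KO. Scaling between libraries cancels in this difference, and since CPM are not per length only its change from library to library can be read. Its mean was -0.58 ± 0.19 in WT and -0.64 ± 0.15 in KO (SD, n = 3 each), a gap of -0.06 that is smaller than either SD.

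The libraries with the lower hydrolase-to-pump values were also those with more neutrophil RNA. WT libraries 1 and 3 and KO library 3 had mean neutrophil marker levels of 4.09, 6.06 and 5.14 log2 CPM, against 8.22 in WT library 2, 7.19 in KO library 1 and 8.08 in KO library 2. Erythroid markers, 8 genes of which Slc4a1 was at 0 in KO library 1, summed to 8373 CPM in WT library 2 and 5147 CPM in KO library 2, which had the lowest hydrolase-to-pump values, and to 366 to 1057 CPM elsewhere. Their part in the result was not tested. In bulk RNA, fewer macrophages in a library and less lysosomal RNA in each macrophage cannot be told apart. With the mean neutrophil marker level added to the fit, the median log2 difference of the hydrolases was -0.04 and that of the pump genes -0.11, and still no member passed. The resident macrophage markers did not take this order, with mean levels of 8.02, 7.33 and 7.61 log2 CPM in WT and 7.25, 8.21 and 8.35 log2 CPM in KO. KO library 1, lowest in 30 of the 40 members where it was the lowest of 20.3% of all tested genes, also had the highest B cell marker sum, 1687 CPM against 263 to 633 CPM elsewhere, over 10 genes none of which was at 0. Monocyte markers, 14 genes with none at 0, summed to 4364 to 6064 CPM in WT and to 2722 to 4046 CPM in KO. By gene, 17 of 18 resident macrophage markers lay above 0 in KO (median log2 difference 0.23), the opposite side to most lysosomal genes, and none passed. The 18 include Atp6v0d2, itself a subunit of the pump, with a log2 difference of 0.24. Of the other cells, 0 of 14 monocyte and 0 of 8 natural killer cell markers lay above 0, and 10 of 10 B cell and 10 of 10 lung epithelial markers did. The remaining lists had 10 of 17 neutrophil, 8 of 10 T cell, 3 of 7 dendritic cell and 1 of 7 erythroid markers above 0. All 3 tested eosinophil and mast cell markers were above 0, beside 45.7% of all tested genes. The part of these cells in the lysosomal values was not tested.

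**Figure D4:**
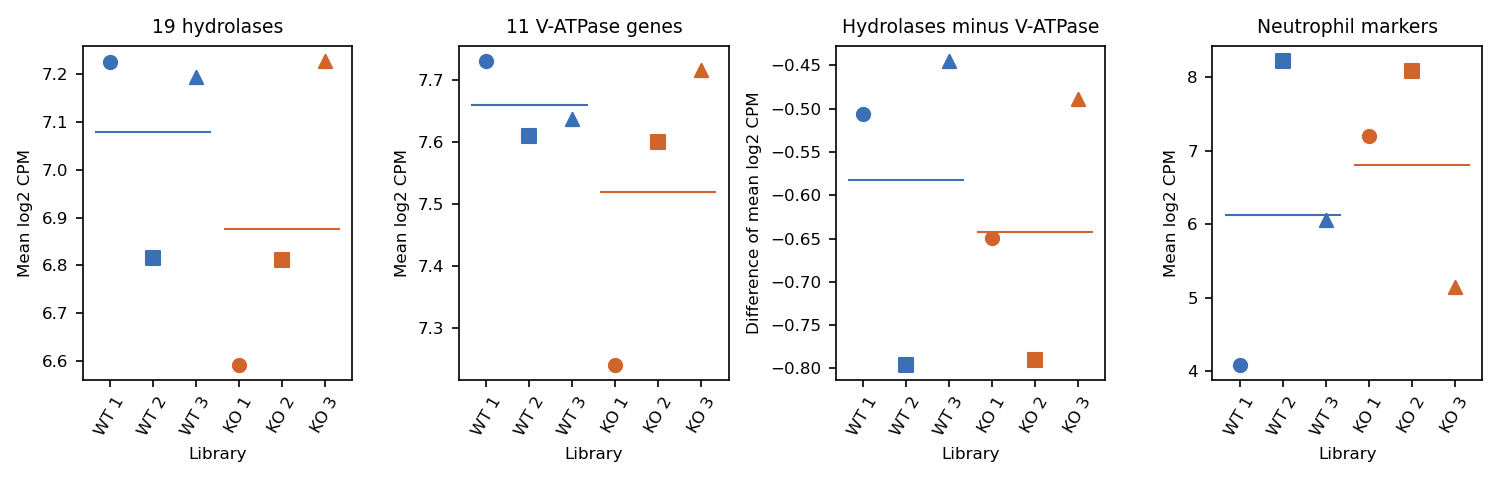
Mean log2 CPM per library of the 19 hydrolases, the 11 V-ATPase genes and the 17 tested neutrophil markers, and the difference of the first pair, with a line at each genotype's mean. Axes differ between panels and do not start at 0. The hydrolase panel and the difference panel put WT libraries 1 and 3 and KO library 3 on top, where the neutrophil panel has them lowest.

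Counted gene by gene, 19 of the 40 members (47.5%) had their 3 highest CPM values in WT libraries 1 and 3 and KO library 3, and 15.3% of all tested genes had. These were 12 of the 19 hydrolases, among them Hexa, Glb1, Man2b1, Lipa and Tpp1, and also Psap, Grn, Lamp1, Npc1 and Npc2. Only 2 of the 11 pump genes, Atp6v1a and Atp6v1c1, were among them. Cln3 and Tfeb were highest in the opposite 3 libraries. The median span between a gene's lowest and highest library was 1.001 in log2 for the hydrolases and 0.61 for the pump genes, beside 0.58 for the 5535 tested genes in the members' range of mean level. These counts and spans are descriptions of 6 libraries and were not tested.

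**Figure D5:**
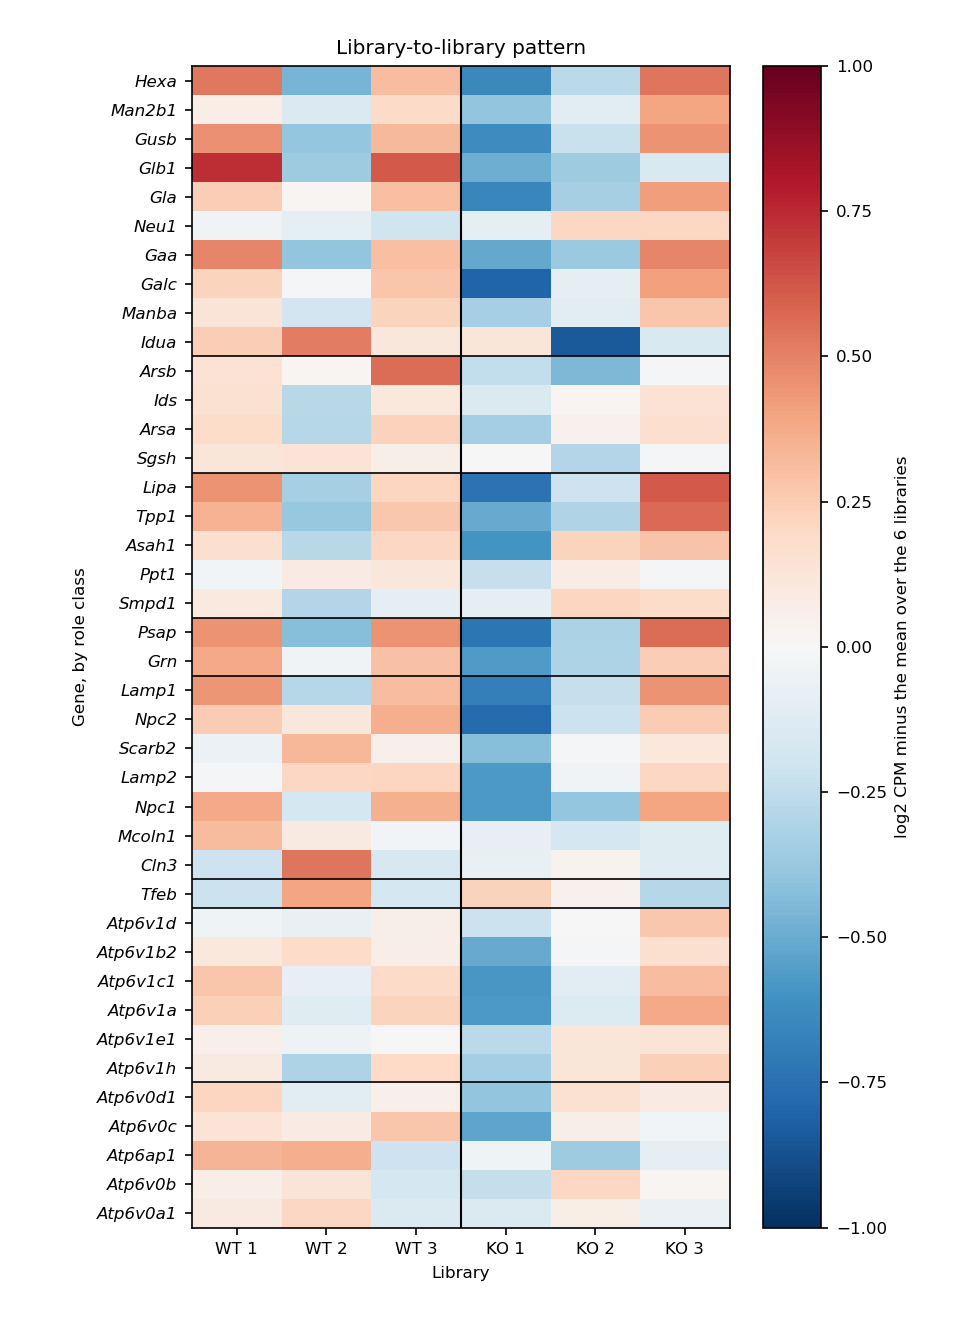
Colour shows each gene's log2 CPM in a library minus its mean over the 6 libraries, red above and blue below, with genes grouped by role and a line between WT and KO. KO library 1 is blue for most genes, and the Psap, Lamp1 and Hexa order recurs through the hydrolases more than through the pump genes in the lowest rows.

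The promoters were searched for the letters that Tfeb is known to bind, because Tfeb is known to switch on many hydrolase and pump genes. RefSeq windows from 250 bases before to 50 bases after a listed start of the gene (GRCm38.p6) were at hand for 35 of the 40 members. There were 41 such windows, and a gene was counted if any of its windows held the letters. All 3 motifs searched read the same on both strands and each shorter one lies inside the longer. The E-box CACGTG was in the windows of 11 of the 35 members (31.4%) and of 8.09% of 27025 genes. The CLEAR core TCACGTGA was in 5 of the 35 (14.3%) and in 1.12% of all genes, and the full CLEAR motif, the core with a G before and a C after it, in 1, Cln3 (2.86%), and in 0.37% of all genes. In Cln3 the match lies in a window at a start inside the gene, and the window at its annotated outer start has none. By role, the E-box letters were in 5 of 18 hydrolase genes, 3 of 8 pump genes and 3 of the other 9. The members are known lysosomal genes, the kind that Tfeb is known to switch on through this motif. Their higher shares are therefore not independent of how they were chosen. A match is a run of letters, not a measured binding site.

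Whole windows are shown for Lamp1, which holds 4 E-boxes close together, and for Mcoln1 and Atp6v0d1, which hold the CLEAR core and are described above. Sequences run 5′ to 3′ along the gene, and capitals mark CACGTG, extended to the core or the full motif where those letters are present.
Lamp1 promoter window, chr8:13158911-13159210, plus strand: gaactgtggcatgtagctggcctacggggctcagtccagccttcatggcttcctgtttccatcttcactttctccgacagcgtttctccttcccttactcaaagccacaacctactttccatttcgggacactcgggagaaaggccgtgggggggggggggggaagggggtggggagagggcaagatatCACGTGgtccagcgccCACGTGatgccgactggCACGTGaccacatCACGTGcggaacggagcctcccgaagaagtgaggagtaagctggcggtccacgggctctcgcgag
Mcoln1 promoter window, chr8:3500269-3500568, plus strand: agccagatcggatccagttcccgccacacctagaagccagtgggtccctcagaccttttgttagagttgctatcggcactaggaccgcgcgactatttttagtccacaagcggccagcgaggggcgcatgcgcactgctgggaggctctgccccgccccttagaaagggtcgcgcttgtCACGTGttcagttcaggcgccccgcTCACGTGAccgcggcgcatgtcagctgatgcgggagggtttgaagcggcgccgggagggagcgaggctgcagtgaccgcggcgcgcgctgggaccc
Atp6v0d1 promoter window, chr8:105566015-105566314, minus strand: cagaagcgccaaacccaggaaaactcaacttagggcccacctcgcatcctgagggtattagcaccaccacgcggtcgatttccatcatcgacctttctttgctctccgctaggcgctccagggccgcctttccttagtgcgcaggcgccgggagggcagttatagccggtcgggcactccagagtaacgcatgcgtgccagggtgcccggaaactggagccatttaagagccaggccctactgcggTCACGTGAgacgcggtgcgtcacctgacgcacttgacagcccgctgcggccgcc
In Mcoln1 the CLEAR core begins 46 bases before the start, and in Atp6v0d1 it straddles the start itself. For comparison, these are 30 bases centred on the longest match in the other 8 genes.
Cln3, chr7:126583340-126583369, minus strand: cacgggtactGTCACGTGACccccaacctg
Gla, chrX:134601215-134601244, minus strand: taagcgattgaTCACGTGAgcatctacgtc
Atp6v1a, chr16:44139373-44139402, minus strand: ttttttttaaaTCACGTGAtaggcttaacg
Glb1, chr9:114401018-114401047, plus strand: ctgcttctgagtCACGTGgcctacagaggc
Gaa, chr11:119267811-119267840, plus strand: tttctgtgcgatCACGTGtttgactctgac
Arsa, chr15:89477423-89477452, minus strand: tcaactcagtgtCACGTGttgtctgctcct
Sgsh, chr11:119355522-119355551, minus strand: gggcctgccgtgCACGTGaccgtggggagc
Atp6v0b, chr4:117887348-117887377, minus strand: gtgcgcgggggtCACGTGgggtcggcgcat
The log2 differences of the 11 genes with these letters were all below 0, as were those of 34 of the 40 members. They ran from -0.74 for Glb1 to -0.0022 for Atp6v0b, and none passed. Their order over the libraries was not the same. Lamp1, Glb1, Gaa, Gla, Arsa and Atp6v1a had their 3 highest values in WT libraries 1 and 3 and KO library 3, and Cln3 did not. Glb1 in KO library 3 was still below its mean over the 6 libraries.

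Other lysosomal genes from the written lists were examined in the same fit, and none passed. Of 27 further hydrolases and helpers, 23 lay below 0 (median log2 difference -0.20). Their smallest p-values were those of Hgsnat, which acetylates heparan sulfate for its breakdown (72.0 ± 8.25 CPM in WT and 43.8 ± 8.34 CPM in KO, edgeR adjusted p = 0.417), and Hyal1, a hyaluronidase of low level (6.03 ± 0.835 and 2.76 ± 1.24 CPM, adjusted p = 0.548).

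Of 9 tested V-ATPase subunits outside the 11, 4 lay above 0. Atp6v0d2 had the highest mean level of the 9, at 154 FPKM. It had 475, 279 and 402 CPM in WT and 219, 455 and 690 CPM in KO libraries 1 to 3. The log2 difference of Atp6v0d2 was 0.24 (SE 0.41), and its relative range over the libraries was wider than that of any member. The smallest p-values of the 9 were those of Atp6v0a2, a proton-channel subunit of endosomes and Golgi (82.9 ± 8.14 and 103 ± 14.5 CPM, log2 difference 0.31, SE 0.15, edgeR adjusted p = 0.809), and Atp6v1g2 (log2 difference -0.43, SE 0.41, adjusted p = 1). Cathepsins, proteases of which many but not all are lysosomal, were below 0 in 10 of 13. Of the 3 above 0, Ctse, an aspartic protease, had the smallest p of the list, with 13.3, 41.1 and 16.2 CPM in WT and 314, 260 and 236 CPM in KO (log2 difference 3.52, SE 0.46, edgeR adjusted p = 0.0661). Ctsw, of cytotoxic lymphocytes, was next (log2 difference -0.31, SE 0.17, adjusted p = 0.851).

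Among the 23 other membrane proteins and transporters, 8 were above 0, with Lamp3 (1.26 ± 0.679 and 2.91 ± 0.832 CPM, edgeR adjusted p = 0.69) and Laptm4a (258 ± 16.1 and 208 ± 32.6 CPM, adjusted p = 0.851) at the smallest p. For the sorting of hydrolases to lysosomes, 11 of 18 genes were below 0. Gnptab, which makes the mannose phosphate tag that directs hydrolases there, had 132, 135 and 156 CPM in WT and 111, 107 and 115 CPM in KO (log2 difference -0.35, SE 0.13, edgeR adjusted p = 0.634), and Igf2r, a receptor of that tag, a log2 difference of -0.34 (SE 0.22, adjusted p = 0.916). Of the 20 relatives and controllers of Tfeb, 14 were below 0. Fnip2, a partner of folliculin in the control of mTORC1 at the lysosome, had 182, 213 and 231 CPM in WT and 93.2, 114 and 166 CPM in KO (log2 difference -0.75, SE 0.24, edgeR adjusted p = 0.534). Rptor, the mTORC1 subunit that binds substrates, had 69.0 ± 9.93 and 54.1 ± 1.52 CPM in WT and KO (SD, n = 3 each), -0.35 in log2 (edgeR adjusted p = 0.685).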

How the data were processed

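Messenger RNA was captured on beads and made into Illumina libraries, per the labels' protocols. Tools listed in the submitters' processing notes are edgeR, HISAT2 and StringTie 1.3.0, without roles, and the build is mm10. Neither the annotation nor the strand setting was found in the labels. The authors deposited whole-number read counts and FPKM for 34745 genes, per the file headers. On 9265 genes with over 100 counts, the deposited FPKM equal counts divided by the library total and 1 length per gene, so FPKM are not TMM-scaled. IDs were matched to GENCODE M21 (GRCm38, the assembly of mm10), which named 34267.

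From the counts, edgeR 4.0.16 (R 4.3.3) was run on all 6 libraries: filterByExpr, TMM, glmQLFit with robust=TRUE and glmQLFTest, Benjamini-Hochberg adjusted over 14037 genes. Standard errors are the log2 difference over the root of F, and intervals are 95% and unadjusted. Log2 CPM used a prior count of 2. Copies were matches of at least 95% identity over 150 bases (blastn 2.17.0). Within a genotype no library pair agreed within sampling noise. On simulated data for this comparison (14037 genes), the test recovered 25 of 100 genes simulated with 2-fold changes and 77 of 100 with 4-fold changes, with 3 false calls. Alternatives used DESeq2 1.42.0, limma 3.58.1, other scalings, filters and pseudocounts, a covariate and left-out libraries.

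The members and gene lists were chosen with earlier results of these data known, so no test over a list is given. Every member is named. Members are given in every library where they have the highest FPKM, largest difference or smallest p of their role class, and Tfeb always. The other lists give the 2 genes with the smallest p, and Atp6v0d2 is added for its level.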

Additional observations from a re-analysis of the deposited data

How the results depend on the processing

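No member passed under any of the 16 alternatives, and the lowest adjusted p was 0.148, for Glb1 without WT library 2. The sign of the difference was the same in all 16 for 23 members and changed in at least 1 for 17. The number of genes called over the whole table was 14 and ranged from 1 to 32 when 1 library was left out (4 without KO library 1, 1 without WT library 3, 32 without KO library 3). Other tools gave 177 calls (DESeq2) and 23 (limma-voom). There were 36 without a filter on low counts, 23 with limma on log2(FPKM + 1), 27 with limma on log2(FPKM + 0.1) and 54 once the mean neutrophil level was a covariate. The causes were not tested. The hydrolase median was -0.15, and leaving out 1 library moved it from -0.50 (without KO library 3) to 0.013 (without KO library 1). The pump median was -0.11, with a range of -0.16 to 0.02, and the genotype gap in hydrolase minus pump level was -0.06, with a range of -0.17 to 0.01. With the replicate number as a block, 1 gene was called. Libraries of the same number deviated with correlations of -0.12, 0.33 and 0.29, and not every library correlated best with its own number, so the numbers were not taken as pairs. With 3 libraries a genotype, most 2-fold changes simulated above were missed, in genes drawn from the tested ones with a mean of at least 1 CPM. Recovery among the members alone was not simulated.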
